A study of Mus musculus with 5 samples.

Results

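The genes described here carry symbols of translation initiation factors (Eif and a digit) or translation elongation factors (Eef and a digit). Added to them were the genes of 3 poly(A)-binding proteins, Pabpc1, Pabpc4 and Pabpn1. All were taken by symbol from a mouse RNA sequencing table of 51912 annotated genes, leaving out the eIF2α kinases, and came to 75 genes. Of these, 63 carried an adjusted p-value and are called tested. The other 12 comprised 11 genes with a mean of at most 5.59 normalized counts and 1, Eif2c5, without a read. Of the 75, 8 are pseudogenes, Eif2c5 is a long noncoding RNA gene, and some encode inhibitors or modifiers of the factors.

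The series compared C57BL/6 mice (source name C57BL/6J) after a sham operation with mice after an ischemic stroke, in a study of TRIM9, a brain-enriched E3 ubiquitin ligase. The sham group had 2 libraries and the stroke group 3, and no other treatment or allele is named for either group. For stroke, the middle cerebral artery was closed for 30 minutes with a coated filament under ketamine and xylazine, and mice were kept if blood flow had dropped by at least 80%. Motor function was scored after 24 hours. The sources used here state no age, sex, tissue or sampling time. Nothing says whether each library came from a separate mouse, so the p-values measure the spread between these libraries, which may in part be technical.

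Translation of most mRNAs starts when eIF4E binds the cap, the scaffold eIF4G and the helicase eIF4A open the leader, and a small ribosomal subunit carrying eIF1, eIF1A, eIF3, eIF5 and the eIF2-GTP-initiator tRNA complex scans to the start codon. eIF2B recharges eIF2 with GTP, and in ischemic brain phosphorylation of eIF2α is a known brake on this step. During elongation eEF1A brings aminoacyl tRNA, the eEF1B subunits recharge eEF1A, and eEF2 moves the ribosome along. Cytoplasmic poly(A)-binding proteins hold the poly(A) tail and touch eIF4G, while nuclear PABPN1 sets tail length. Many mRNAs of this machinery begin with a terminal oligopyrimidine (TOP) tract, a C followed by pyrimidines, through which mTORC1 and LARP1 control their translation.

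Because the TOP tract lies at the first transcribed bases, start sites are shown for the gene with the smallest p-value, for its nuclear relative, for a paralog pair of elongation factors and for 3 further members. The RefSeq promoter table (GRCm38.p6) held starts for 50 of the 75 genes by symbol, among them 49 of the 63 tested. Eef1g and Pabpc1 had no entry. Each line gives 20 bases before the start in lower case and the first 10 transcribed bases in capitals, 5′ to 3′ on the coding strand.
Pabpc4 (chr4:123282891-123282920, plus strand): taaaaaaaaaaaaaagaaaaGAAAAGAAGA
Pabpn1 (chr14:54894123-54894152, plus strand): atcgccgatcggcgggccccAGTCTGAGCG
Eef1a1 (chr9:78481715-78481744, minus strand): cgtgtgctggctccgccctcTTCCCGAGGG
Eef1a2 (chr2:181157006-181157035, minus strand): gtttttctctcctggtctgcGTTCTCGCTC
Eef2 (chr10:81176611-81176640, plus strand): cgacctataaaaggccgggcGTTGACGTCA
Eif3f (chr7:108934395-108934424, plus strand): gctcttctgttctaggctctCTCTCTTTCT
Eif2s3x (chrX:94212642-94212671, minus strand): ggcggctgccgagcattttcCTTTTCTCTC

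Eif3f and Eif2s3x were shown because their listed start is a C followed by at least 4 pyrimidines. Such starts were 3 of the 64 listed for these genes (4.69%, the other one being that of the noncoding Eif2c5, which had no read). Of all 32851 starts in the table they were 2.51%. Among the 5 starts listed for members long known as TOP mRNAs, only 1 was of this kind. A listed start without the tract therefore cannot tell whether the mRNA lacks it. At Eef1a1 a run of 10 pyrimidines begins 5 bases before the listed start, and at Eef1a2 a run of 12 begins 19 bases before it. On the coding strand, a run of at least 8 pyrimidines within 20 bases either side of the start was found at 15 of the 64 starts (23.4%), against 16.1% of all starts. The Pabpc4 line holds 25 A in 30 bases, where the median of all starts was 6, and 8 of the 32851 starts (0.0244%) held as many. This feature was picked after the sequence had been seen. The start shown is that of 1 of 4 coding Pabpc4 transcripts in GENCODE M21. The stretch lies downstream of the starts of 2 others, at 123282825 and 123282832. Whether it belongs to their leaders was not checked.

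Normalized counts per library were recovered from the authors' means, fold changes and standard errors for 45 of the 63 tested genes, and for 14189 of all 17420 tested genes. The 18 tested genes without them all had a mean of at least 1778, and include Pabpc1, Eef1a1, Eef1a2, Eef2, Eif1, Eif4a1 and the eIF4G genes. Above a mean of 1000 the recovered values are less certain, as described with the processing. For 9 of the 45 genes the reads were the most likely of several sets that fitted. These were Eef2k, Eif1b, Eif2a, Eif3b, Eif3f, Eif4ebp2, Eif4enif1, Eif5a and Eif5a2. Such a choice favours sets whose libraries lie close to their group mean. Size factors were 1.16, 1.13 and 1.116 for the stroke libraries and 0.945 and 0.734 for the sham libraries, which are called the deeper and the shallower sham library. Stroke libraries are given in the order of their size factors.

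The deeper sham library stood apart in markers of other cells. The 5 red blood cell markers were all lower in stroke by the authors' test, and summed to 67.2 to 230 normalized counts in the stroke libraries, and in sham to 2801 (deeper library) and 474 (shallower). The 5 recovered choroid plexus markers summed to 371 to 385 in stroke, and in sham 1453 (deeper library) and 207 (shallower), and 2 of 6 were called lower. Of the 6 markers each for neurons, astrocytes, oligodendrocytes, microglia and endothelium none was called, and of 6 neutrophil markers 2 were tested and none was called. Neuron markers were abundant, with means up to 65803 (Snap25), as were astrocyte markers, up to 102016 (Slc1a2). The part of this library difference in the results below was not tested, other than by the values given without each sham library. In bulk RNA, fewer cells of a type and less RNA per cell cannot be told apart.

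After stroke, Pabpc4 and Eef1g were higher and no other translation factor or poly(A)-binding protein passed the test. These 2 of 63 genes (adjusted p below 0.05, authors' DESeq2 Wald test) compare with 0.775% of all tested genes called higher, and 0 of 63 called lower compare with 0.786%. An unadjusted p below 0.05 was reached by 7 of the 63 (11.1%), against 10.5% of all tested genes. The point estimates leaned upward, with 50 of 63 positive (79.4%) against 47.2% of all tested genes. The median log2 fold change was 0.20, against -0.02 over all tested genes. Markers of several cell types also leaned 1 way without a call, and their part in the members' estimates was not tested. All 6 endothelial markers were positive (median 0.38), as were 5 of 6 microglia markers (0.44) and all 6 neuron markers (0.15), while 3 of 6 astrocyte markers (-0.01) and 0 of 6 oligodendrocyte markers (-0.32) were. Summed over recovered genes, endothelial markers had 4017 to 5614 normalized counts in stroke and 2847 and 3405 in sham, and microglia markers 5159 to 6437 and 5002 and 3040. Of the 45 genes with recovered reads, 12 had every stroke library above both sham libraries (26.7%, against 12.5% of all such genes), 1 had every stroke library below both (2.22%, against 12.9%), and 32 overlapped.

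**Figure D1:**
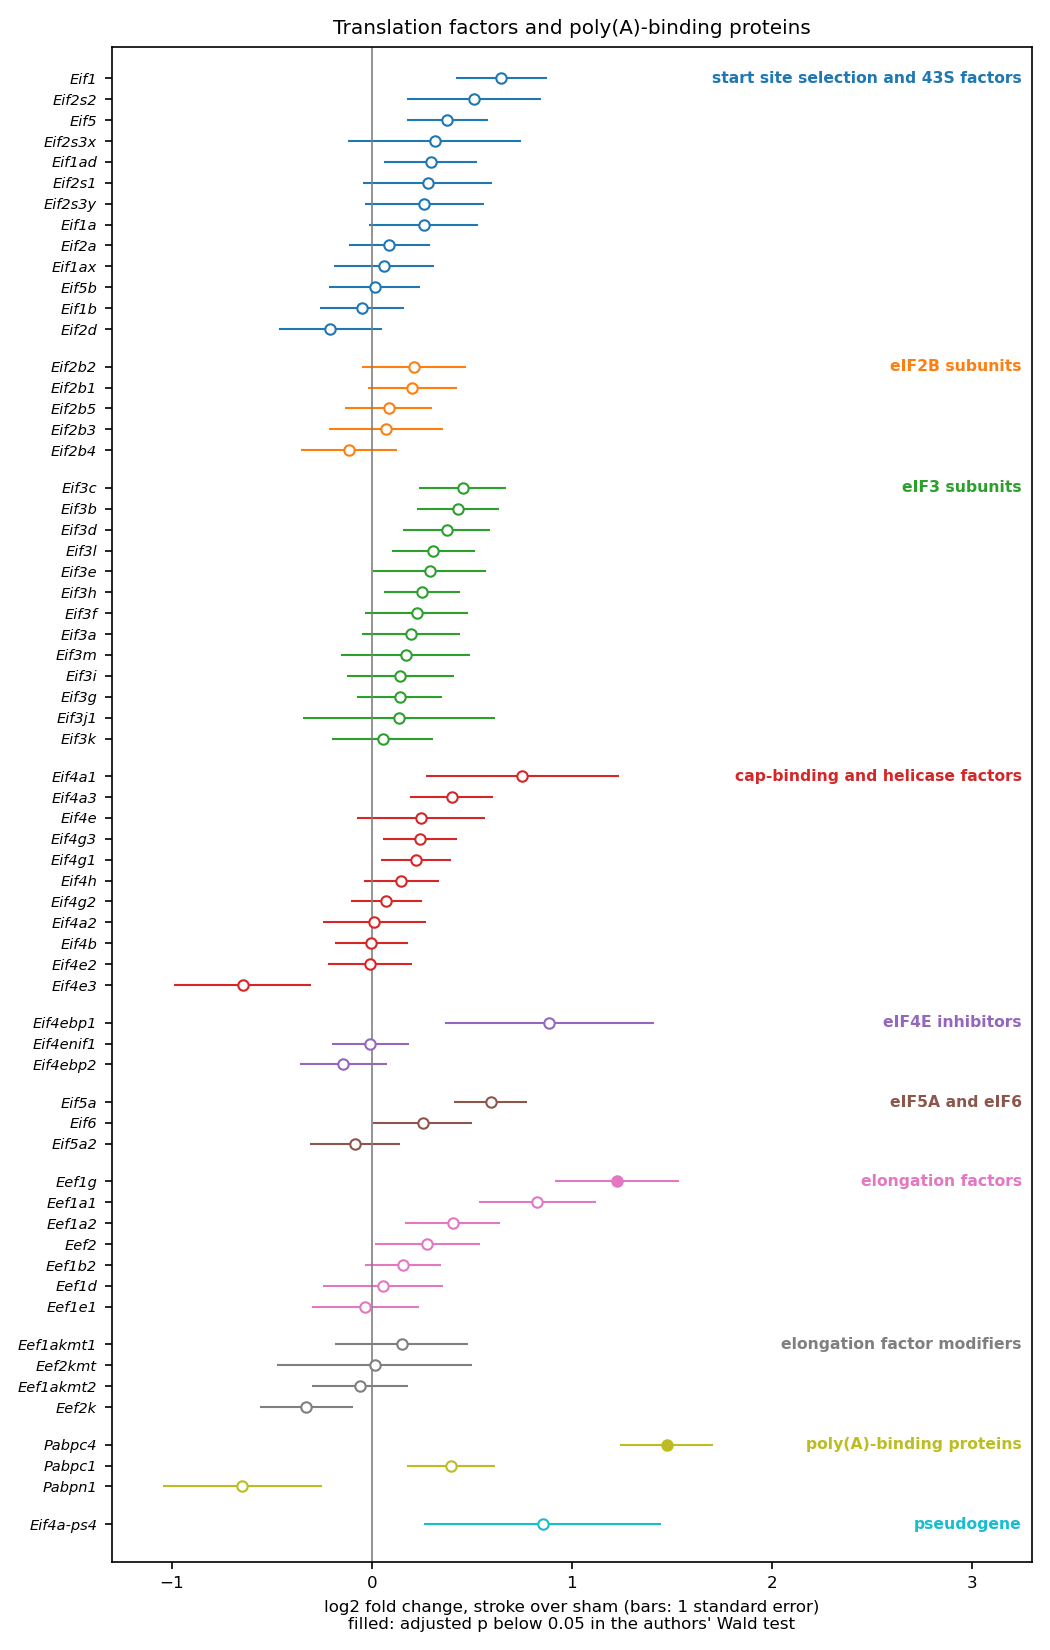
Log2 fold change, stroke over sham, of the 63 tested genes in the authors' table (x axis), grouped and coloured by role, with bars of 1 standard error and filled symbols for an adjusted p below 0.05. Pabpc4 (1.47) and Eef1g (1.23) carry the filled symbols, all 13 eIF3 subunits lie right of 0, and Pabpn1 and Eif4e3 lie farthest left.

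**Figure D2:**
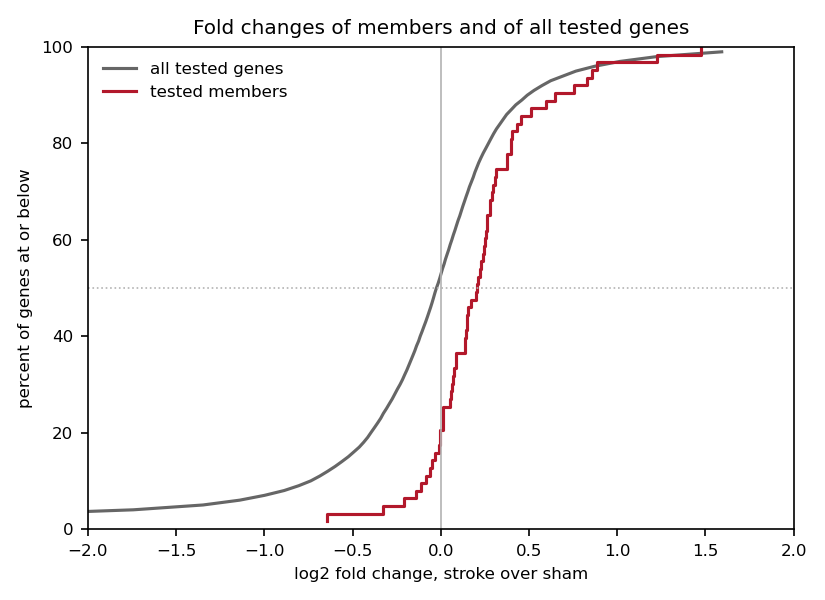
Cumulative percent of genes (y axis) by log2 fold change, stroke over sham (x axis, cut at -2 and 2), for the 63 tested members and for all 17420 tested genes. The members' curve crosses 50% at 0.20 and that of all genes at -0.02.

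Pabpc4 is a cytoplasmic poly(A)-binding protein related to PABPC1, the abundant form. Its normalized counts were 690, 712 and 688 in the stroke libraries, and in sham 224 (deeper library) and 278 (shallower). The 3 stroke values were close together and the groups were far apart, with means of 696 ± 13 (SD, n = 3) and 251 ± 38 (SD, n = 2). The authors' deposited table gives a log2 fold change of 1.47 (SE 0.23) and a DESeq2 adjusted p of 2.27e-07, the 15th smallest p of all genes. The call ended when tested against a fold of 1.5 (adjusted p of 0.0646, Wald test) and in limma on the recovered counts (adjusted p of 0.33). Pabpc4 (GRCm38, chr4:123262351-123298925) overlaps 2 small nucleolar RNA genes on its own strand and a processed pseudogene on the other in GENCODE M21.

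The other poly(A)-binding protein genes did not pass the test. For Pabpc1 the authors' deposited table gives a mean of 4578, a log2 fold change of 0.40 (SE 0.22) and a DESeq2 adjusted p of 0.54. Per kilobase of exon Pabpc1 was the more abundant, with 699.99 normalized counts against 129 for Pabpc4. Nuclear Pabpn1 had 357, 374 and 430.0 normalized counts in stroke, 867 in the deeper sham library and 343 in the shallower. Only the deeper sham library was high, and the shallower sham value lay below all 3 stroke values. The authors' deposited table gives -0.65 (SE 0.40) on the log2 scale for Pabpn1, with a DESeq2 adjusted p of 0.63. Pabpn1 shares 5638 bases of its span with a protein-coding gene on the same strand (Gm20521), so its count depends on how the authors treated shared reads. Pabpc4 counts per Pabpn1 count were 1.93, 1.90 and 1.60 in stroke and 0.259 and 0.810 in the sham libraries.

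**Figure D3:**
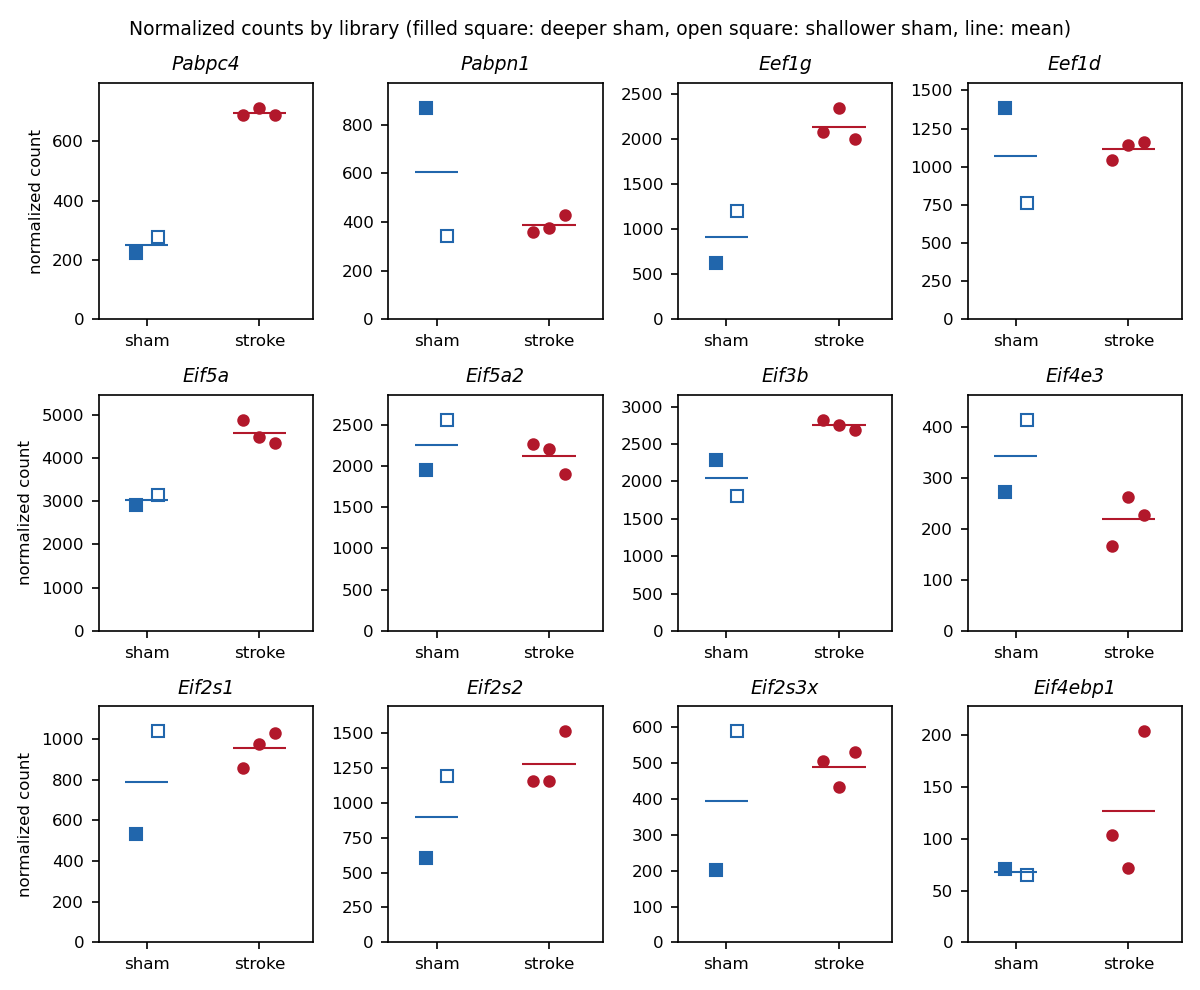
Normalized counts (y axes, from 0) in each library for 12 genes with recovered reads, sham as squares (deeper filled, shallower open) and stroke as circles, with the group mean as a line. The groups do not overlap for Pabpc4, Eef1g, Eif5a, Eif3b, Eif4e3 and Eif4ebp1, though for Eif4e3 and Eif4ebp1 their nearest values almost meet. For Pabpn1, Eef1d and the eIF2 subunits the sham libraries lie on either side of, or overlap, the stroke libraries.

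Eef1g, the gamma subunit of the eEF1B complex that recharges eEF1A, was the other gene to rise. It had 2072, 2339 and 2001 normalized counts in stroke, and in sham 626 (deeper library) and 1203 (shallower). All stroke values were above both sham values, and the sham values differed 1.92-fold from each other. The authors' deposited table gives a log2 fold change of 1.23 (SE 0.31) and a DESeq2 adjusted p of 0.0117. The call ended against a fold of 1.5 and in limma on the recovered counts (adjusted p of 0.48). Eef1g lies at chr19:8967041-8978479 (GRCm38).

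The other eEF1B subunits had smaller estimates than Eef1g. Eef1d, the delta subunit, had 1046, 1140 and 1162 in stroke, and in sham 1382 (deeper library) and 762 (shallower), so the sham libraries enclosed all stroke values. Counts of Eef1g per count of Eef1d were 1.98, 2.05 and 1.72 in stroke and 0.453 and 1.58 in the sham libraries, without overlap. The beta subunit Eef1b2 stood at 0.16 (SE 0.19, log2 scale) in the authors' deposited table. Eef1e1, a component of the tRNA synthetase complex, had 333, 380.1 and 473 in stroke and 419 and 390 in sham, overlapping throughout.

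Eef1a1 and Eef1a2 encode the broadly expressed and the neuronal and muscle form of eEF1A. For Eef1a1 the authors' deposited table gives a mean of 17389, a log2 fold change of 0.83 (SE 0.29) and a DESeq2 adjusted p of 0.15. For Eef1a2 the authors' deposited table gives a mean of 23323, 0.40 (SE 0.24) and an adjusted p of 0.59. Per kilobase of exon, the means over all libraries were 11192 normalized counts for Eef1a2, 7304 for Eef2 and 6975 for Eef1a1, the highest of all tested members. Eef2 stood at 0.28 (SE 0.26, log2 scale) in the authors' deposited table. Of the 7 elongation factor genes, 1 was called, 6 were positive and the median log2 fold change was 0.28.

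Of 4 tested modifiers of elongation factors none was called and 2 were positive. Their log2 fold changes ran from -0.33 to 0.15, with a median of -0.02 and SEs up to 0.49. Eef2k, the kinase that inactivates eEF2, had 1216, 1064 and 970.2 in stroke, and in sham 1206 (deeper library) and 1514 (shallower). One stroke library exceeded the deeper sham library, and the authors' deposited table gives -0.33 (SE 0.23). The eEF1A methyltransferase gene Eef1akmt1 had 213, 277 and 250 in stroke and 275 and 168 in sham. Eef1akmt2, of the same family, had 301, 299 and 288 in stroke and 289 and 328 in sham. Eef2kmt, the methyltransferase of eEF2, had 43.6 to 75.2 across the 5 libraries with both groups interleaved.

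eIF5A, which relieves ribosome stalling and carries hypusine, had the next smallest p-value. Eif5a had 4878, 4485 and 4343 normalized counts in stroke and 2919 and 3137 in the deeper and shallower sham libraries. The groups did not overlap and the sham values were close, with means of 4569 ± 277 (SD, n = 3) and 3028 ± 154 (SD, n = 2). These reads were the most likely of 17 sets that fitted the deposited values. That choice favours sets whose libraries lie close to their group mean. The SDs, the closeness of the sham values and the gap between the groups may partly reflect it. The authors' deposited table gives 0.59 (SE 0.18) and a DESeq2 adjusted p of 0.0621, which misses the threshold. When fold changes were centred on the median of all tested genes the adjusted p was 0.0442.

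Its paralog Eif5a2 had 2267, 2208 and 1899 in stroke and 1948 and 2560.2 in sham, with both groups overlapping. The authors' deposited table gives -0.08 (SE 0.23) for Eif5a2. Counts of Eif5a per count of Eif5a2 were 2.15, 2.03 and 2.29 in stroke against 1.499 and 1.23 in sham. Eif6, which keeps ribosomal subunits apart, had 664, 581 and 746 in stroke and 616 and 496 in sham.

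Among the 13 genes for start site selection and the 43S complex, none was called, 11 were positive and the median log2 fold change was 0.26. Eif1, the guardian of start codon choice, had the smallest p, with a mean of 2859, 0.65 (SE 0.23) and a DESeq2 adjusted p of 0.15 in the authors' deposited table. Its paralog Eif1b had 1462, 1402 and 1534 in stroke, within the 1687 and 1348 of the sham libraries. For Eif5, the GTPase-activating protein of eIF2, the authors' deposited table gives a mean of 6855 and 0.38 (SE 0.20), and for Eif1ax a mean of 5472 and 0.06 (SE 0.25).

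The subunits of eIF2 had in common a low deeper sham library. Eif2s1, the alpha subunit and site of regulatory phosphorylation, had 856, 977 and 1027 in stroke, and in sham 535 (deeper library) and 1037 (shallower). Eif2s2, the beta subunit, had 1155, 1156 and 1510.4 in stroke, and in sham 601 (deeper library) and 1191 (shallower). The gamma subunit Eif2s3x had 506, 432 and 532 in stroke, and in sham 201 (deeper library) and 589 (shallower). In all 3 the shallower sham library lay within or above the stroke values, at 1.94, 1.98 and 2.93 times the deeper. The Y-linked gamma subunit Eif2s3y had 827, 828 and 625 in stroke and 490.1 and 779 in sham. Log2 fold changes in the authors' deposited table were 0.28 (SE 0.32) for Eif2s1, 0.51 (SE 0.34) for Eif2s2, 0.31 (SE 0.43) for Eif2s3x and 0.26 (SE 0.30) for Eif2s3y.

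The 5 eIF2B subunits, which form the exchange factor of eIF2, had log2 fold changes from -0.11 to 0.21. The median was 0.08 and none was called. Eif2b5, the catalytic subunit, had 1160, 1181 and 1168 in stroke, between the sham values of 1251 (deeper library) and 955 (shallower). Eif2b1 had 531, 522 and 601 in stroke and 499 and 459 in sham, the only one of the 5 without overlap, with 0.20 (SE 0.22) in the authors' deposited table. Eif2b2 had 613, 614 and 555 in stroke and 605 and 418 in sham.

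All 13 tested eIF3 subunits had a positive estimate, between 0.05 and 0.45 on the log2 scale with a median of 0.23, and none passed the test, while 47.2% of all tested genes were positive. eIF3 is the largest initiation factor and joins the 40S subunit to eIF4G. Eif3b, of the core, had 2824, 2761 and 2687 in stroke and 2281 and 1808 in sham, without overlap. Its reads were the most likely of 4 sets that fitted. The authors' deposited table gives 0.43 (SE 0.20) for Eif3b and 0.45 (SE 0.22) for Eif3c, with DESeq2 adjusted p of 0.41 and 0.42. Of the 11 subunits with recovered reads, Eif3b, Eif3d, Eif3h and Eif3l had every stroke library above both sham libraries (12.5% of all recovered genes did), and 7 overlapped.

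Within the complex the sham libraries split the subunits. Eif3j1 had 434, 474 and 486 in stroke, and in sham 181 (deeper library) and 666 (shallower), a 3.68-fold difference within sham. Eif3m and Eif3e were likewise lower in the deeper sham library, 1.98-fold and 1.68-fold. Eif3f had 2776, 2432 and 2513 in stroke, and in sham 2678 (deeper library) and 1724 (shallower), and Eif3i and Eif3k were also lower in the shallower. Reads of Eif3j1 and of the near-identical Eif3j2 may be split by the counting. For Eif3a, the largest subunit and the most abundant by mean (5015), the authors' deposited table gives 0.20 (SE 0.24).

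None of the 11 cap-binding and helicase genes was called, 8 were positive and the median was 0.15. For the helicase Eif4a1 the authors' deposited table gives a mean of 2918, the largest estimate of the group at 0.75 (SE 0.48), and a DESeq2 adjusted p of 0.67. Its paralog Eif4a2 had a mean of 9168 in the authors' deposited table, with 0.01 (SE 0.26). Per kilobase of exon, Eif4a2 had 1717 normalized counts and Eif4a1 673. Both host small nucleolar RNA genes in GENCODE M21. Eif4a3, the helicase of the exon junction complex, had 968, 848 and 926 in stroke and 665 and 722 in sham, without overlap, where the authors' deposited table gives 0.40 (SE 0.21).

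The cap-binding proteins differed in pattern. Eif4e had 2253, 2191 and 2027 in stroke, and in sham 1202 (deeper library) and 2439 (shallower). Eif4e3, which binds the cap in an atypical way, had 166, 263 and 228 in stroke and 272 and 414 in sham, and was the only one of the 45 tested members with recovered reads to have every stroke library below both sham libraries. The closest values of the 2 groups were 263 and 272, and the authors' deposited table gives -0.65 (SE 0.34) with a DESeq2 adjusted p of 0.51. Eif4e3 lies wholly inside a protein-coding gene on its strand (Gm20696). The scaffold genes Eif4g1, Eif4g2 and Eif4g3, with means of 7786, 15678 and 8399, had 0.22, 0.07 and 0.24 in the authors' deposited table.

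Of the eIF4E inhibitors, Eif4ebp1, the mTORC1 substrate 4E-BP1, had 104, 71.6 and 203 in stroke and 70.9 and 65.4 in sham. Every stroke library was above both sham libraries, but the lowest stroke value exceeded the deeper sham value by less than 1 normalized count, and 1 stroke library was far above the other 2. The authors' deposited table gives 0.89 (SE 0.52) and a DESeq2 adjusted p of 0.59. Eif4ebp2, the main form in brain, had 1320, 1454 and 1699 in stroke and 1740.1 and 1552 in sham. Eif4enif1, the eIF4E transporter, had 1532, 1411 and 1463 in stroke, within the 1394 and 1559 of the sham libraries.

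Of 10 genes long known as TOP mRNAs (Eef1a1, Eef1b2, Eef1d, Eef1g, Eef2, Eif3e, Eif3f, Eif3h, Eif4b and Pabpc1), 1 was called (Eef1g), 9 were positive and the median log2 fold change was 0.26. For the 53 other tested members the median was 0.17, with 1 called (Pabpc4) and 41 positive (77.4%). Of all tested genes 0.775% were called higher and 47.2% were positive. Eif3h had 1930, 1917 and 1823 in stroke and 1699 and 1478 in sham, without overlap. Eif4b, a cofactor of eIF4A, had a mean of 6300 in the authors' deposited table and an estimate of -0.0020 (SE 0.18) on the log2 scale.

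The sham libraries differed from each other more than the stroke libraries did in 33 of the 45 genes, as in 8912 of all 14189 genes with recovered reads. The direction was even, with 23 genes higher in the deeper sham library and 22 in the other. Beyond 1.5-fold, 11 were higher in the shallower library (Eef1g, Eif1a, Eif2s1, Eif2s2, Eif2s3x, Eif2s3y, Eif3e, Eif3j1, Eif3m, Eif4e and Eif4e3) and 6 in the deeper (Eef1akmt1, Eef1d, Eef2kmt, Eif3f, Eif3i and Pabpn1). The stroke mean lay above the deeper sham value in 27 genes, above the shallower in 29, and between them in 28. For Pabpc4 the stroke mean exceeded both sham libraries by a larger ratio than that between them. The same held for other members, such as Eif5a, Eif4a3 and Eif4ebp1.

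**Figure D4:**
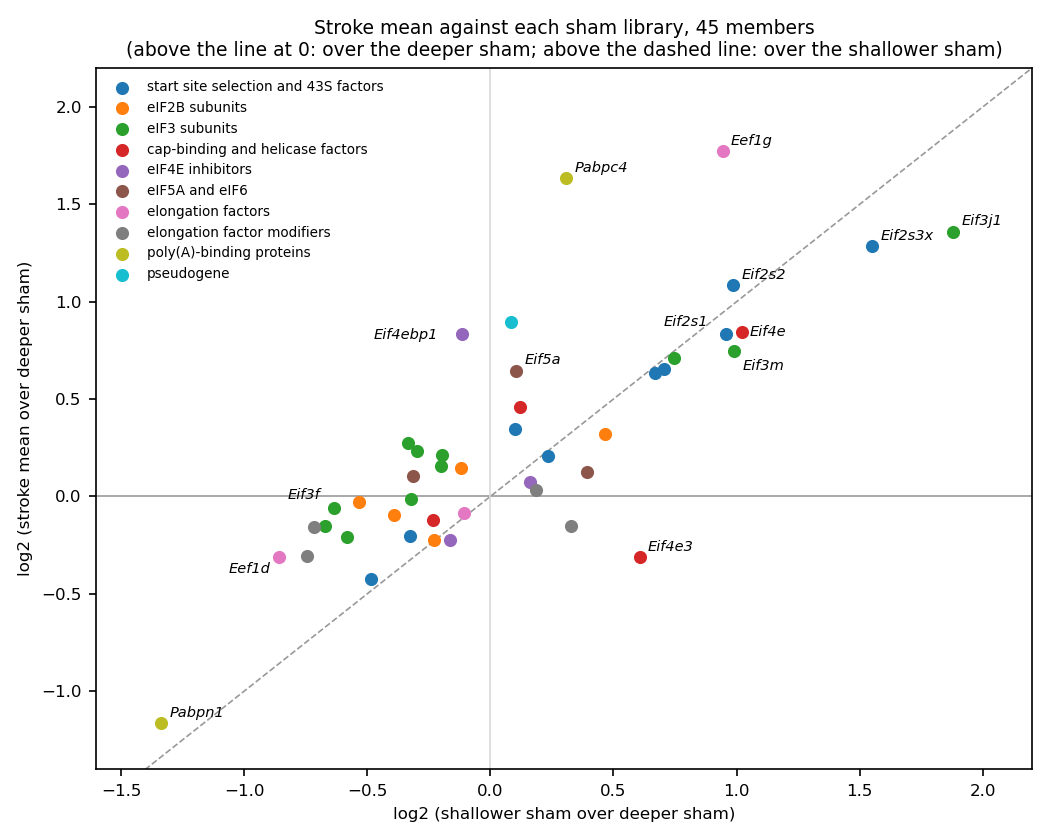
Log2 ratio of the shallower to the deeper sham library (x axis) and of the stroke mean to the deeper sham library (y axis) for the 45 tested genes with recovered reads, coloured by role. Both axes share the deeper sham library as denominator, so points lean along the diagonal by construction. Pabpc4, Eef1g and Eif5a lie above both lines, Eif4e3 lies below both, and the eIF2 subunits and Eif3j1 lie far right near the dashed line.

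A test on log2 of the recovered normalized counts (limma, pseudocount 1) called 0 of the 45 members, with 4 at an unadjusted p below 0.05, and 0.0141% of all 14189 genes. The limma log2 fold changes were 1.48 for Pabpc4 and 1.297 for Eef1g. Without the deeper sham library limma called 6 members, all higher (Eef1d, Eef1g, Eif3b, Eif3f, Eif5a and Pabpc4), out of 45, in a fit that called 16.7% of all genes. Without the shallower it called 7, with Eef1g, Eif2s2, Eif2s3x, Eif3j1, Eif4e and Pabpc4 higher and Pabpn1 lower, in a fit that called 2.56% of all genes. Those fits assume that the lone sham library varies like the stroke libraries. Pabpc4 and Eef1g were the only members called in both, and without any 1 of the stroke libraries limma called none.

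Neighbouring parts of the pathway were read from 10 further gene lists, of whose 87 tested genes 2 were called higher and 0 lower, beside 0.775% and 0.786% of all tested genes. Of 10 eIF2α kinases, phosphatases and their regulators, Ppp1r15a (GADD34), which directs the removal of phosphate from eIF2α, was called. It had 702, 666 and 615 in stroke and 386 and 290.2 in sham, without overlap, and 0.96 (SE 0.25) with a DESeq2 adjusted p of 0.0128 in the authors' deposited table. The kinase genes Eif2ak1, Eif2ak2, Eif2ak3 and Eif2ak4 had -0.12, -0.12, 0.16 and -0.0015 in the authors' deposited table, and none was called.

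All 12 ATF4 targets and related stress genes, which eIF2α phosphorylation is known to induce, had positive estimates with a median of 0.65, and 1 was called. Chac1, a glutathione-degrading enzyme, had 222, 243 and 414 in stroke and 132 and 102 in sham, with 1.32 (SE 0.39) and a DESeq2 adjusted p of 0.0437 in the authors' deposited table. Adjusted over every gene with a p-value, the Wald test gave Chac1 an adjusted p of 0.0794, which ends its call. Phgdh, the first enzyme of serine synthesis, had 415, 446 and 359 in stroke and 213 and 245 in sham, with a DESeq2 adjusted p of 0.0671 per the authors' deposited table. Trib3, a pseudokinase, had 23.3, 25.6 and 74.4 in stroke and 5.29 and 8.18 in sham, with a DESeq2 adjusted p of 0.10 per the authors' deposited table. In 6 of the 12 genes, these 3 among them, every stroke library lay above both sham libraries, and in the other 6 the groups overlapped. Of all recovered genes, 12.5% had every stroke library above. The stroke library with the smallest size factor was the highest stroke library in all 12 genes except Phgdh and Ddit4, where it was the lowest. Slc7a11 had 1207, 1959 and 3871 in stroke and 1144 and 1691 in sham. Sesn2 had 577, 440.2 and 1137 in stroke and 397 and 361 in sham.

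The remaining lists had no called gene. Of 13 mTORC1 signalling genes 7 were positive, with Rheb, the activator of mTORC1, at 0.60 (SE 0.19) and a DESeq2 adjusted p of 0.0809 in the authors' deposited table. Of 9 mitochondrial translation factors 5 were positive, and Tufm, the mitochondrial counterpart of eEF1A, had 467, 559 and 470.3 in stroke against 121 and 289 in sham, with a DESeq2 adjusted p of 0.0549 per the authors' deposited table. Of 9 termination and recycling genes 7 were positive (median 0.19). Of 9 partners and relatives of poly(A)-binding proteins 3 were positive, with Paip2, an inhibitor of PABPC1, at 1749, 1925 and 1974 in stroke and 2250.3 and 2155 in sham.

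Of 7 MNK kinase and repressor genes 5 were positive (median 0.09), and of 7 diphthamide synthesis genes 4 were (median 0.0042). The eIF5A hypusination list has 2 genes in 3 rows, because Dohh occurs under 2 identifiers, and 2 rows were positive. Of 8 other TOP genes 7 were positive with a median of 0.70, and none was called.

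The 12 untested members are 7 pseudogenes, Eif3j2, Eif4e1b, Eif4ebp3, Eef1akmt3 and Eif2c5, and give no comparison at this depth. The only tested pseudogene, Eif4a-ps4, had 32.0, 35.4 and 33.1 in stroke and 18.0 and 19.1 in sham, with 0.86 (SE 0.59) in the authors' deposited table. How reads that fit several places were counted is not stated, so values of genes with near-identical copies (Eif1, Eif3e, Eif4a1, Eif5a and their pseudogenes) are uncertain.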

How the data were processed

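RNA sequencing of 5 mouse libraries (2 sham, 3 stroke) was read from 1 deposited table. RNA was taken with TRIzol and RNeasy columns and made into libraries with a KAPA stranded mRNA kit, per the labels' protocols. Per the submitters' processing notes, the authors used the build GRCm38, the aligner STAR (2.5.2b), the counter featureCounts (1.5.1), FastQC, and DESeq2 (1.14.1). Per the file headers, the authors give for each gene a signal (the mean of read counts divided by size factors), a log2 fold change and its standard error, the Wald statistic as a score, and a p-value with its Benjamini-Hochberg adjusted p-value. The sources used here give no annotation release, strand setting or treatment of shared reads.

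The authors' Wald test at an adjusted p below 0.05, over the 17420 genes they adjusted, was the main test. Positive values were taken to mean higher in stroke, since genes with 1 read in 1 library gave 3 positive and 2 negative values. Those genes also gave the size factors. Total reads per library are not known, and the means sum to 2.65e+07. Nothing ties the recovered libraries to the labels' replicate numbers, so sham replicate 1 here means the deeper library, and stroke replicates are ordered by size factor.

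Whole reads per library were searched for that gave the deposited mean, fold change and standard error together (numba 0.67.0, numpy 2.4.6, Python 3.11.15). They were accepted where 1 set was found, or where 1 of several was at least 1000 times as likely as the next. On simulated data with known reads, 100 of 100 sets accepted at means of 20 to 200 were right, 99 of 99 up to 1000, 96 of 96 up to 2000, and 16 of 16 above (60 tried). After shifting the mean on purpose, 0, 1, 21 and 10 were still accepted, so values above a mean of 1000 rest on weaker evidence. Normalized counts are these reads divided by the size factors. They entered limma 3.58.1 (R 4.3.3) as log2 of the value plus a pseudocount of 1. On simulated counts for 14189 genes of this comparison, limma called 175 of 200 genes changed 3-fold (87.5%) with 6 false calls. The simulation gave all libraries the same random spread and no added difference between the sham libraries. Its rate therefore cannot tell how many changed genes limma would find in the real libraries. An exact two-sided permutation test of 3 against 2 libraries cannot go below p = 0.2 and was not used.

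The members, role groups, gene lists, marker lists and the naming rule were chosen with earlier results of these data known. The rule gives full values for called genes, the poly(A)-binding protein genes, the 2 smallest p-values and 2 largest means of each role group, and set paralog pairs. Of other lists it names called genes, the 2 next by p-value and the largest mean. Fewer pathway genes are named here, and other members were named after their values were seen. Genome positions and exon lengths are from GENCODE M21, and start sequences from RefSeq, both on GRCm38.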

Additional observations from a re-analysis of the deposited data

How the results depend on the processing

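Members called by the authors' test were Pabpc4 and Eef1g, 2 of 63, beside 272 of all 17420 tested genes. They numbered 2 of 74 when adjusted over every gene with a p-value, where 187 of 31651 genes were called. Under a floor of 5 CPM (of the summed means) they numbered 2 of 60, beside 142 of 11519 genes. With centred fold changes 3 of 63 were called (with Eif5a), beside 295 of all 17420. The same 3 were called at an adjusted p below 0.1, beside 401 of all 17420. Against a fold of 1.5 the count was 0, beside 27 of all 17420, with an adjusted p of 0.0646 for Pabpc4 (Wald test). With limma on recovered reads, and with pseudocounts of 0.5 and 5, it was 0 of the 45 members with reads. Each of these limma fits called 2 of 14189 genes. Leaving out 1 library each, limma called 0 to 7 members (0 without any stroke library, 6 of 45 without the deeper sham library, where 16.7% of all genes were called, and 7 of 45 without the shallower, where 2.56% were). Of known TOP members, 1 was called by the authors' test, 0 against a fold of 1.5, 0 by limma with each pseudocount, and 0 to 3 without 1 library each. Of pathway genes 2 were called, 1 (without Chac1) when adjusted over every gene, 5 at an adjusted p below 0.1 and 3 with centred fold changes. The counts over all genes under these settings are those given above for the members. The members' median log2 fold change was 0.20. It was 0.18 over every member with a read, and 0.145 to 0.18 when each library was left out, which used the 45 recovered members (0.17 with all libraries). No paired analysis was possible because the recovered libraries carry no replicate numbers from the labels. The limits are the 2 sham libraries, which differ in markers of blood and choroid plexus, the 18 abundant members without values per library, and the unknown tissue and sampling time.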
